A study of Mus musculus with 15 samples.

Results

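The 38 genes described here lie on the distal part of mouse chromosome 16, and each is the ortholog of a gene on human chromosome 21. They were looked up by symbol, and 38 of 38 were among the 18279 genes of the deposited table. RNA from 15 subcutaneous tumors of Renca cells, a mouse renal carcinoma line of BALB/c origin, was measured by bulk RNA sequencing, with 5 control tumors, 5 tumors of *Pbrm1* knockout clone 4 and 5 tumors of *Pbrm1* knockout clone 18. *Pbrm1* encodes a subunit of the SWI/SNF chromatin remodeling complex. The hosts were female BALB/c mice 4 to 6 weeks old at purchase, with an intact immune system, so each library held tumor cells and host cells. Some mice of the study received a PD-1 antibody, and the labels do not say whether any of these 15 did. The source labels name the control cells as parental Renca, whereas the study's methods name a control knockout, so they are called control here. Knockout cells had been made with CRISPR/Cas9 plasmids and a repair plasmid carrying puromycin resistance and a red fluorescent protein. Each knockout line was sorted as a single clone, so every tumor of a group came from 1 cell line, and any feature particular to a clone cannot be told apart from loss of *Pbrm1* in that clone.

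An extra copy of human chromosome 21 causes Down syndrome, and the mouse orthologs of its genes are divided among chromosomes 16, 17 and 10, with most of them on distal chromosome 16. For many genes the amount of mRNA follows the number of gene copies, which is why these genes are often read together as dosage genes. They do not form a pathway: among them are the amyloid precursor gene *App*, the superoxide dismutase *Sod1*, the calcineurin inhibitor *Rcan1*, the kinase *Dyrk1a*, the transcription factors *Runx1* and *Ets2*, and many housekeeping genes. The files hold RNA only, so the number of copies was not measured, and a change in copies and a change in RNA per copy cannot be told apart.

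The tumors held 32924414 to 49099168 reads on genes (median 40860659), so counting error was small for nearly all of the 38 genes. *Pbrm1* itself measured 7451.5 to 9870.6 normalized counts in the control tumors, 2483.8 to 3067.8 in clone 4 and 2572.1 to 3137.5 in clone 18, with no overlap between knockout and control tumors. Of 10 renal and epithelial marker genes, 10 were present, and their summed level was 114823 to 138646 in control, 98536 to 128565 in clone 4 and 104475 to 120590 in clone 18. Of these genes, 1 was called lower in the knockout tumors (*Krt18*, log2 difference -0.32 ± 0.09) and 1 higher (*Epcam*, 1.23 ± 0.26). Macrophage markers summed to 80202.9 to 107630.0, 64055.2 to 79796.7 and 57539.5 to 77218.3 in the same order, and 5 of 8 were called lower in the knockout tumors. T cell markers summed to 455.3 to 1328.8, 459.6 to 709.9 and 464 to 565.5, and 3 of 7 were called lower. Skeletal muscle markers summed to 73.2 to 154.4 (median 89.6) in control, 51.8 to 1044.8 (median 77.5) in clone 4 and 84.9 to 1528.7 (median 1091.5) in clone 18, with overlap between all groups. Of these 5 genes, 0 were called in the knockout tumors by limma, 4 by edgeR and 4 by DESeq2, and 2 had an unadjusted p under 0.05 by limma. Neutrophil and B cell markers had 1 gene called lower each, and endothelial, fibroblast and keratinocyte markers had 0 called by limma, edgeR or DESeq2 and 0 at an unadjusted p under 0.05. Whether these host cells contributed to the values of the 38 genes was not tested. In bulk tumors, fewer cells of a type and less RNA per cell cannot be told apart.

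The 38 genes were lower in most knockout tumors by a small amount. Differences are given as log2 differences of log2(normalized count + 1), knockout minus control, ± standard error, and a gene was called when the adjusted p from limma over 18250 genes was under 0.05. The median difference of the 38 genes was -0.28 for all 10 knockout tumors against the 5 control tumors, -0.20 for clone 4 and -0.35 for clone 18, and 34, 33 and 34 of the 38 differences were below 0. Over all genes tested, the medians were -0.02, -0.01 and -0.02. In the comparison of all knockout with control tumors, 19 of the 38 genes were called lower and 1 was called higher, beside 12.9% and 9.23% of all genes tested. Clone 4 alone had 12 called lower and 2 higher, beside 10.0% and 6.79%, and clone 18 had 22 lower and 1 higher, beside 14.2% and 10.4%. All knockout tumors lay below all control tumors for 10 genes and above them for 1, beside 4.87% and 3.11% of all genes. In clone 4 the groups did not overlap for 10 lower and 2 higher genes, beside 8.20% and 5.80%, and in clone 18 for 18 lower and 1 higher, beside 9.82% and 7.24%. The genes were selected on the normalized counts of these same tumors, with lower values on chromosome 16 in the knockout tumors already known, so these counts describe them and are not a test. The comparisons share tumors, since both clones were set against the same 5 controls.

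**Figure D1:**
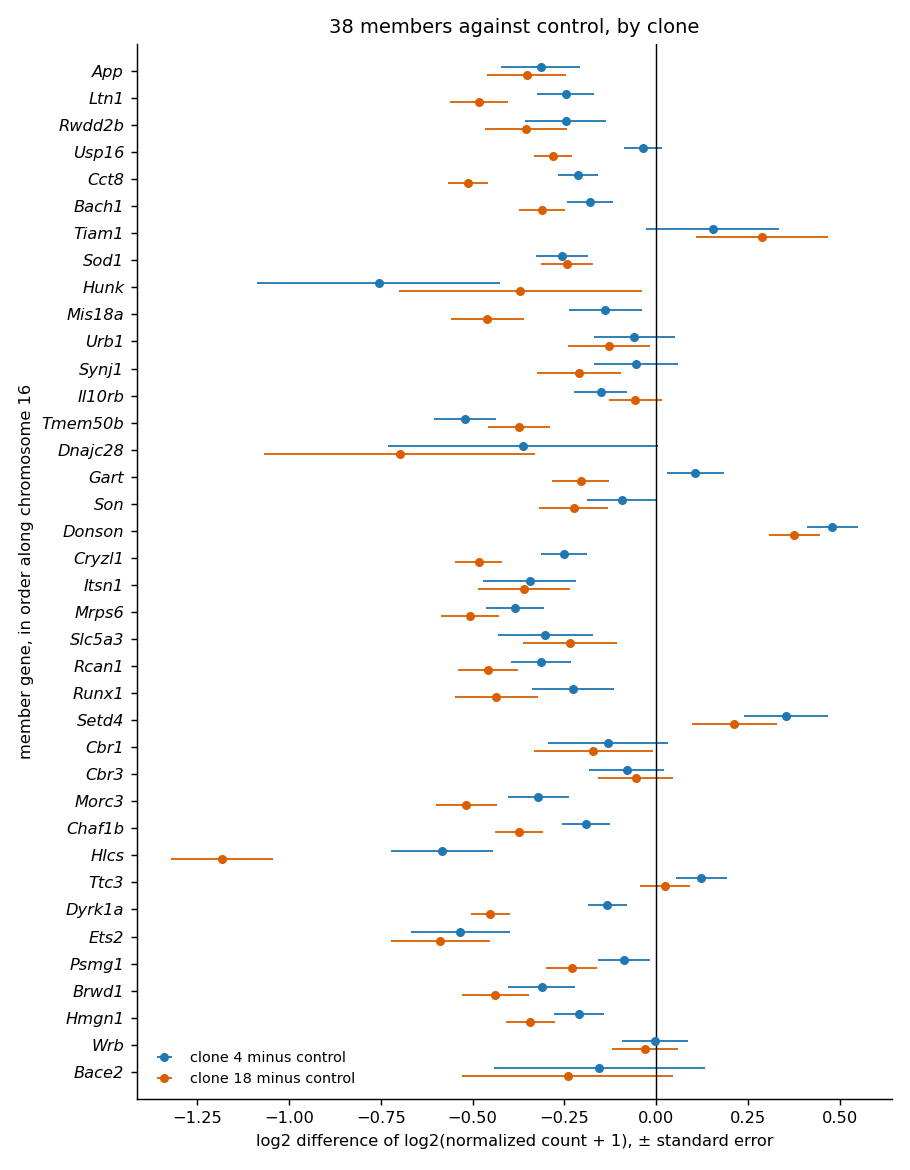
Log2 difference of each of the 38 genes against control (horizontal axis, with standard error) for clone 4 in blue and clone 18 in orange, in order along chromosome 16 from *App* at the top to *Bace2* at the bottom. Most points lie left of 0, *Hunk*, which was not called, lies farthest left in clone 4 at -0.76 and *Hlcs* in clone 18 at -1.18, and *Donson* lies farthest right at 0.48 and 0.38.

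The 38 genes differed widely in level. All 38 had a mean of at least 10 normalized counts, so none was lost to a filter on low values, and 30 had a mean of at least 1000. Per kilobase of exon, in normalized counts over the control tumors, the highest were *Hmgn1* at 6146, *Cct8* at 5617, *Sod1* at 3310 and *App* at 2247, and the lowest was the kinase gene *Hunk* at 1.92. *Hunk* and *Dnajc28* had means under 50 and wide errors (differences of -0.56 ± 0.29 and -0.53 ± 0.32), and neither was called.

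Of 10 genes of chromatin and transcription, 7 were called lower in the knockout tumors, with a median difference of -0.29. Called lower there were also 12.9% of all genes, and 158 of 459 other chromosome 16 genes with a mean of at least 10. Clone 4 had 4 of the 10 called lower and 1 higher, beside 10.0% and 6.79% of all genes. Clone 18 had 9 called lower, beside 14.2%. Differences between genes grouped by role were not tested. *Ets2*, a transcription factor that acts downstream of Ras signaling, measured 3508.2, 5842, 4099.7, 5097.3 and 4509.5 normalized counts in control, 2766.6, 3071.2, 2895.5, 2885.4 and 4284.3 in clone 4 and 2834.9, 3280.2, 2527.6, 3283.7 and 3260.0 in clone 18. Only tumor 10 of clone 4 reached into the control range, and the differences were -0.53 ± 0.13 and -0.59 ± 0.13. *Morc3*, an ATPase of nuclear bodies, measured 5695.8, 5503.8, 5499, 5747.2 and 5347.9 in control, 4244, 4190.2, 4237.4, 4606.9 and 5005 in clone 4 and 4320.8, 4142.7, 3027.6, 3913.2 and 4156.8 in clone 18. All 10 knockout tumors lay below all 5 control tumors for *Morc3*, with differences of -0.32 ± 0.08 and -0.52 ± 0.08.

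*Brwd1*, which encodes a bromodomain protein that binds acetylated chromatin, measured 6394.4, 7877.4, 6154.6, 5797.6 and 6591.3 in control, 5613.3, 5661.8, 5348.4, 4493.1 and 5254.5 in clone 4 and 4513.7, 4964.6, 4450.5, 5793.6 and 4497.1 in clone 18. All knockout tumors again lay below all control tumors, although the margin was only 5793.6 against 5797.6. *Hmgn1*, which encodes a nucleosome-binding protein, was -0.21 in clone 4 and -0.34 in clone 18, and *Chaf1b*, a subunit of the histone chaperone CAF-1, was -0.19 and -0.37. Neither gene overlapped between knockout and control tumors. *Bach1*, a repressor of oxidative stress genes, was -0.18 and -0.31 with no overlap. *Runx1*, a regulator of blood formation that host blood cells also express, was -0.23 and -0.44 with overlap. *Chaf1b*, *Bach1* and *Runx1* were called lower in clone 18 and were not called in clone 4.

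*Usp16*, a deubiquitinase of histone H2A, and *Mis18a*, which helps to load the centromere histone, passed the threshold in clone 18 and not in clone 4 when each was set against control. *Usp16* measured 2424.3, 2369.2, 2534.4, 2461.8 and 2466.7 in control, 2357.8, 2470.2, 2579.2, 2292.6 and 2264.7 in clone 4 and 1992, 1951.4, 2165, 1987.7 and 1992.7 in clone 18. Clone 4 overlapped the control tumors for *Usp16* whereas clone 18 lay below both, and the direct comparison of the clones is given further on. *Mis18a* measured 1393.8, 1041, 1452.2, 1267.3 and 1224.4 in control, 1200.6, 1108.5, 1167.8, 1281.2 and 1017 in clone 4 and 1027.6, 981.9, 973.9, 771.8 and 874.3 in clone 18. All clone 18 tumors were below all control tumors for *Mis18a*, but its difference between clones, -0.32 ± 0.10, did not pass the threshold. *Setd4*, a SET domain methyltransferase gene, went the other way, with 293.6, 240.4, 261.5, 288 and 236.8 in control, 298, 385.1, 310.3, 331.1 and 365.4 in clone 4 and 298, 247.3, 336.4, 315.7 and 337 in clone 18. Clone 4 lay wholly above control for *Setd4* (0.35 ± 0.12, called), and clone 18 overlapped it (0.21 ± 0.12, not called).

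Among 10 genes of RNA and protein production and quality control, 4 were called lower in the knockout tumors, beside 12.9% of all genes. Their median was -0.23. *Cct8*, a subunit of the cytosolic chaperonin that folds actin and tubulin, measured 16839.1, 17666.1, 17503.1, 17829.8 and 16881.2 in control, 14891.1, 14949.1, 14868.5, 14843.6 and 15267.9 in clone 4 and 13064.4, 12714.9, 10924.6, 11949.1 and 12199.4 in clone 18. The 3 groups did not overlap for *Cct8*, and clone 18 was the lowest (-0.21 ± 0.05 and -0.51 ± 0.05). *Ltn1*, the ubiquitin ligase that marks proteins stalled on ribosomes, measured 5025, 5781.2, 4754.3, 4161.6 and 4963.1 in control, 4152.4, 4437.7, 4265.2, 3730.8 and 4135 in clone 4 and 3543.2, 3501.7, 3108.8, 3713.7 and 3745.9 in clone 18. Clone 18 lay below all control tumors for *Ltn1* (-0.48 ± 0.08), and 3 of 5 clone 4 tumors did (-0.25 ± 0.08).

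*Mrps6*, a protein of the small mitochondrial ribosomal subunit, measured 2001.9, 2356, 2482.4, 2479.7 and 2029 in control, 1718.4, 1653.2, 1971.5, 1709 and 1621.9 in clone 4 and 1715.5, 1486.3, 1709.5, 1482.5 and 1577.4 in clone 18. No knockout tumor reached the control range for *Mrps6*, and the differences were -0.38 ± 0.08 and -0.51 ± 0.08. *Mrps6* overlaps the inositol transporter gene *Slc5a3* on the same strand in the GENCODE annotation, so some reads of either gene may be uncertain. *Rwdd2b* was also called lower (-0.30 ± 0.10). *Psmg1*, a proteasome assembly chaperone, was -0.09 in clone 4 and -0.23 ± 0.07 in clone 18, where it was called lower and all 5 tumors lay below all control tumors. Over all knockout tumors it was -0.16 ± 0.07 and was not called. Also not called were the splicing cofactor *Son* (-0.16 ± 0.08) and the ribosome biogenesis gene *Urb1* (-0.09 ± 0.10). The ubiquitin ligase gene *Ttc3* and *Wrb*, a receptor for insertion of tail-anchored proteins, stood nearest to 0 (0.07 ± 0.06 and -0.02 ± 0.08), and neither was called in the 4 comparisons on this scale.

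Of 7 genes of metabolism, transport and oxidative stress, 3 were called lower in the knockout tumors, beside 12.9% of all genes. Their median was -0.25. *Hlcs*, the enzyme that attaches biotin to carboxylases, had the largest difference among the genes called in each comparison with control. Without regard to calls, *Hunk* was farther from control in clone 4 (-0.76 ± 0.33, not called). *Hlcs* measured 1891.6, 2607.9, 1987.2, 2335.2 and 1855.6 in control, 1311.5, 1879.6, 1137.9, 1441.6 and 1385.8 in clone 4 and 965.4, 686.6, 949, 1023.4 and 1090.4 in clone 18. Tumor 7 of clone 4 lay within the control range and the other 9 knockout tumors lay below it, and all clone 18 tumors were below all clone 4 tumors. The differences were -0.58 ± 0.14 for clone 4 and -1.18 ± 0.14 for clone 18, so that clone 18 stood at 44.2% of the control mean. *Sod1*, the cytosolic superoxide dismutase, measured 12311.9, 12980.5, 12480.7, 15566.3 and 12369.6 in control, 10069.5, 10546.7, 11062.9, 11358.6 and 11840.3 in clone 4 and 11607.2, 10759.8, 11278.1, 10170.9 and 11568 in clone 18. The groups did not overlap between knockout and control for *Sod1*, and the differences were -0.26 ± 0.07 and -0.24 ± 0.07, with 0.01 ± 0.07 between the clones.

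*Gart*, an enzyme of purine synthesis, showed no common direction. It measured 6583.6, 6034, 6589.5, 5956.7 and 5316.2 in control, 6743.5, 7689.5, 6208.8, 6177.1 and 6025.4 in clone 4 and 5542.3, 5397.7, 4836.6, 4943.6 and 5676 in clone 18, with clone 18 wholly below clone 4 and neither clone called against control. *Slc5a3* was -0.27 ± 0.11 and was not called. The neighboring carbonyl reductase genes *Cbr1* and *Cbr3*, which are close paralogs, were both near control. *Cbr1* measured 171.8, 130.4, 179.9, 145.7 and 176.6 in control, 134, 151.9, 156.2, 118.3 and 174.9 in clone 4 and 162.3, 164.9, 104.7, 127.3 and 160.1 in clone 18, a difference of -0.15 ± 0.14 that was not called. *Cbr3* measured 443.3, 344.4, 352.4, 363.1 and 337.3 in control, 358.7, 333.5, 332.2, 381.2 and 328.6 in clone 4 and 351.1, 376.5, 312.8, 324.8 and 404.1 in clone 18, a difference of -0.07 ± 0.09 that was not called either. The groups overlapped throughout for both genes.

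**Figure D2:**
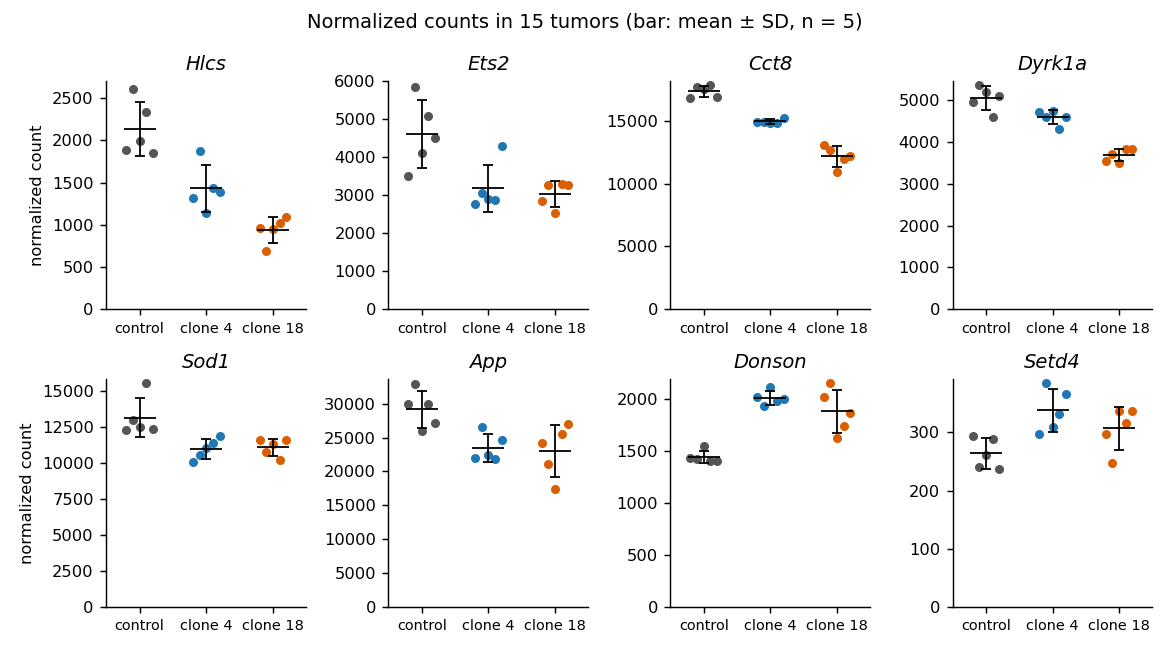
Normalized counts of 8 of the 38 genes in each of the 15 tumors (vertical axis from 0, points), with the mean and SD of each group (n = 5). *Hlcs*, *Cct8* and *Dyrk1a* step down from control to clone 4 to clone 18, *Sod1*, *App* and *Ets2* have clone means close to each other, and *Donson* and *Setd4* are higher in the knockout tumors.

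The group of signaling, trafficking and membrane genes also holds the DNA replication factor gene *Donson*. Of the 11 genes in this group, 5 were called lower and 1 higher in the knockout tumors, beside 12.9% and 9.23% of all genes. *App*, the amyloid precursor gene, measured 29973.8, 32915.4, 25935.1, 29958.4 and 27213.3 in control, 21923.9, 26589, 22459, 21761.4 and 24590.6 in clone 4 and 24176.7, 21133.3, 17438, 25547.1 and 26981.5 in clone 18. Of 10 knockout tumors, 8 lay below all control tumors for *App* (-0.33 ± 0.09). *Bace2*, a protease that cleaves the App protein, was low, with 83.6, 66.1, 138.2, 48.2 and 82.5 in control, 42.4, 106.1, 69.6, 58 and 96.9 in clone 4 and 78.6, 64, 68.1, 81.2 and 47 in clone 18. The groups overlapped for *Bace2*, and its difference of -0.20 ± 0.25 was within the spread.

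*Rcan1* and *Dyrk1a*, whose products both restrain signaling from calcineurin to NFAT, were lower. *Rcan1* measured 5907, 5205.2, 6087.8, 6326.5 and 6062.7 in control, 4424.3, 4491.2, 4892.9, 4561.4 and 5443.9 in clone 4 and 4870.8, 4297.8, 4101, 3644.6 and 4707.6 in clone 18. Tumor 10 was the only knockout tumor within the control range for *Rcan1*, and the differences were -0.31 ± 0.08 and -0.46 ± 0.08. *Dyrk1a* measured 4969.3, 5366.4, 5204.1, 4607.6 and 5094.2 in control, 4723.3, 4590.6, 4752.6, 4319 and 4607.3 in clone 4 and 3549.3, 3715.8, 3508, 3829 and 3839.9 in clone 18. Clone 4 was close to control for *Dyrk1a* (-0.13 ± 0.05, not called), and clone 18 lay below all tumors of the other groups (-0.45 ± 0.05, called). *Tmem50b*, which encodes a small membrane protein, measured 2173.6, 2427.3, 2216.3, 2065.1 and 1957.1 in control, 1717.5, 1448.7, 1663.1, 1302.8 and 1440.3 in clone 4 and 1763.4, 1806.2, 1659.8, 1447.4 and 1697.2 in clone 18. It was among the few genes lower in clone 4 (-0.52 ± 0.08) than in clone 18 (-0.37 ± 0.08), although the clones did not differ past the threshold. *Synj1* (-0.13 ± 0.10), *Il10rb* (-0.10 ± 0.07) and the Rac exchange factor gene *Tiam1* (0.22 ± 0.16) were not called.

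*Donson*, *Cryzl1* and *Itsn1* follow each other on chromosome 16, and the first went against the rest. *Donson* measured 1432.1, 1421.5, 1540.3, 1405.1 and 1395.7 in control, 2016.4, 1931.2, 2115.7, 1975.2 and 1999.6 in clone 4 and 2010.4, 2152, 1625.7, 1734.1 and 1860.6 in clone 18. All 10 knockout tumors were above all 5 control tumors, and *Donson* was called higher in both clones (0.48 ± 0.07 and 0.38 ± 0.07). *Cryzl1*, a quinone oxidoreductase-like gene, measured 3801.8, 3820.7, 3983.7, 4176.2 and 3730.2 in control, 3084.9, 3332.1, 3137.2, 3520.3 and 3328.5 in clone 4 and 2959.4, 2601.1, 2712.2, 2569 and 3142.5 in clone 18. All 10 knockout tumors were below all control tumors for *Cryzl1* (-0.25 ± 0.06 and -0.48 ± 0.06). *Itsn1*, an endocytic scaffold gene that starts next to *Cryzl1* on the opposite strand, was -0.34 ± 0.13 and -0.36 ± 0.13 and was called lower in clone 18. The end of *Donson* overlaps that of *Son* on the other strand. A GENCODE entry named *Atp5o* overlaps *Donson* and *Cryzl1* on the same strand and *Itsn1* on the other. The RefSeq position of *Atp5o*, chr16:91925223-91931630, lies beyond *Itsn1* and overlaps none of these genes. Which of these the deposited *Atp5o* values were counted on is not given. *Son* and *Atp5o* were both below control (-0.16 ± 0.08 and -0.27 ± 0.06), whereas *Donson* was above it. The strand setting of the counting is not given in the sources used here, so reads shared by these genes are uncertain.

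The promoters of these neighbors and of *Hlcs* are shown for 3 reasons. *Donson* was called higher next to *Cryzl1*, which was called lower, while *Son* on its other side was not called. *Cryzl1* and *Itsn1* start back to back, and *Hlcs* had the largest difference in all knockout tumors and in clone 18. Each sequence is the 250 bases before the RefSeq start on GRCm38.p6, written 5′ to 3′ on the strand of the gene. Capitals mark matches, on either strand, to the GC box GGGCGG, the ETS core CCGGAA, the CCAAT box or the TATA box TATAAA, and neighboring matches may overlap.
Donson, chr16:91688729-91688978, minus strand: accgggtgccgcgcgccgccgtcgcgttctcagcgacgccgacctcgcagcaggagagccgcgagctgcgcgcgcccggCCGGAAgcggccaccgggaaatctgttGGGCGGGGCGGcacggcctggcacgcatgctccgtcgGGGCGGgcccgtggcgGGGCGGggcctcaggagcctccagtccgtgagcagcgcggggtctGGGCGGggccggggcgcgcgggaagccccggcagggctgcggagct
Cryzl1, chr16:91728803-91729052, minus strand: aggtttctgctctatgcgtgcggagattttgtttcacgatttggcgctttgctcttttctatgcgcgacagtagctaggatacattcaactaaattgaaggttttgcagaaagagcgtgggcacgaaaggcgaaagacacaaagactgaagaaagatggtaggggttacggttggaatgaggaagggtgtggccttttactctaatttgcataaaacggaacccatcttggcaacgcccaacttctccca
Itsn1, chr16:91729121-91729370, plus strand: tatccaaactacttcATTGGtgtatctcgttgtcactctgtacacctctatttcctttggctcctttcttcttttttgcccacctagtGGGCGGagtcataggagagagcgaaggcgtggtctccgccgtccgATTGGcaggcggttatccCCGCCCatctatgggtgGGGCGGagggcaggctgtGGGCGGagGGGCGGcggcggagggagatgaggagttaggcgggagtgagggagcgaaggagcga
Hlcs, chr16:94313564-94313813, minus strand: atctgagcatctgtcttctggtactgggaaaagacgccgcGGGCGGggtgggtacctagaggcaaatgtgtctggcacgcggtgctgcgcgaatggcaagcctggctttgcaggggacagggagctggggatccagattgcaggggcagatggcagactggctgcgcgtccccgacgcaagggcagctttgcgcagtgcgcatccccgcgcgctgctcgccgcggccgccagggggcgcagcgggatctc
The *Donson* promoter was 79.6% G and C with 5 GC boxes and 1 ETS core, and the *Itsn1* promoter was 59.2% with 5 GC boxes and 2 CCAAT boxes. The *Cryzl1* promoter, at 46.0%, held none of the 4 motifs, and the *Hlcs* promoter, at 67.2%, held 1 GC box. RefSeq gave 41 promoters for 34 of the 38 genes. A GC box was found in 65.85% of them against 32.74% of 32851 promoters of all genes, an ETS core in 19.51% against 12.03%, a CCAAT box in 39.02% against 33.85% and a TATA box in 2.439% against 12.37%. Their median G and C content was 66% against 52.4%. The 32851 promoters belong to 27025 genes, more than the 18279 genes measured here, whereas all 38 genes had a mean of at least 10. Promoters of other genes at a like level were not compared. These shares describe letters in a window and say nothing of which factors bind there.

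The median over the 38 genes was lower in each knockout tumor than in any control tumor. The level of the genes in a tumor was taken as the median over the 38 of the log2 difference from the control mean. It was 0.03, 0.01, 0.04, -0.02 and -0.06 in the control tumors, -0.19, -0.15, -0.18, -0.31 and -0.15 in clone 4, and -0.30, -0.30, -0.35, -0.32 and -0.28 in clone 18. The groups of knockout and control tumors did not overlap, and tumor 9 of clone 4 reached the clone 18 range. The group means were -0.00 ± 0.04 (SD, n = 5), -0.20 ± 0.07 and -0.31 ± 0.03. The genes were chosen with this contrast known, so the absence of overlap is a description.

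Human chromosome 21 orthologs outside the set were examined in the same way. For 46 other orthologs on chromosome 16, the median difference was -0.28 in the knockout tumors, -0.25 in clone 4 and -0.35 in clone 18. Of these 46, 16 were called lower and 0 higher in the knockout tumors, 12 and 2 in clone 4, and 20 and 0 in clone 18. The shares of all genes were 12.9% and 9.23%, 10.0% and 6.79%, and 14.2% and 10.4% in the same order. For 44 orthologs on chromosomes 10 and 17, the medians were -0.01, -0.02 and -0.04, and 3 were called lower and 2 higher, beside the 12.9% and 9.23% of all genes. Called among these were *Prmt2*, an arginine methyltransferase gene (0.41 ± 0.09, adjusted p = 0.00238 by limma), *Agpat3* (0.24 ± 0.08, adjusted p = 0.0394), *Pttg1ip* (-0.21 ± 0.06, adjusted p = 0.018) and *S100b*, a calcium-binding protein gene (-1.21 ± 0.31, adjusted p = 0.0091). *Prmt2* measured 1420.5, 1089.5, 1368.7, 1251.6 and 1420.0 in control, 1600.8, 1673.2, 1632.3, 1520.1 and 1488.2 in clone 4 and 2007.3, 1838.2, 1962.1, 1688 and 2026.3 in clone 18, with no overlap between knockout and control. The 31 orthologs on chromosome 10 had medians of 0.02, -0.02 and -0.02, whereas the 13 on chromosome 17 had medians of -0.10, -0.06 and -0.19. Of those 13, 10 were below 0 in the knockout tumors. There 1 (7.69%) was called lower, with 1 (7.69%) in clone 4 and 3 (23.1%) in clone 18. The shares of all genes called lower were 12.9%, 10.0% and 14.2%. In clone 4, *Wdr4* was called higher (0.20 ± 0.06), 1 of the 13 beside 6.79% of all genes. Differences between the chromosomes were not tested.

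**Figure D3:**
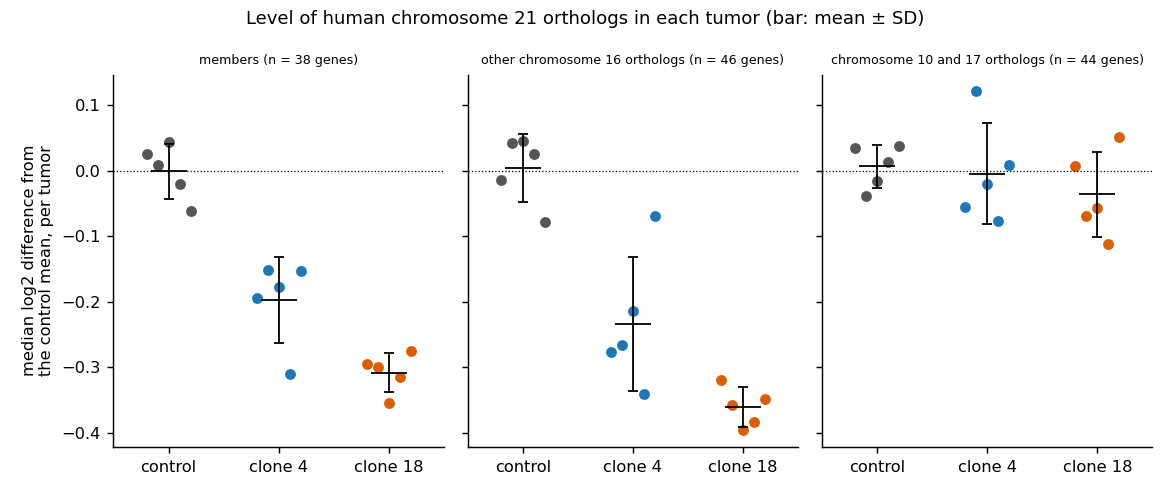
Median log2 difference from the control mean in each tumor (vertical axis) for the 38 genes, for 46 other orthologs on chromosome 16 and for 44 orthologs on chromosomes 10 and 17, with the mean and SD of each group of 5 tumors. Knockout tumors lie below the control tumors for the 38 genes (-0.35 to -0.15 against -0.06 to 0.04) and overlap them for the orthologs on chromosomes 10 and 17.

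The lower values were not limited to the distal end. The 38 genes span chr16:84949685-97442936 on mm10, and 459 other genes of chromosome 16 had a mean of at least 10. All 497 together had a median difference of -0.20 in the knockout tumors, -0.14 in clone 4 and -0.27 in clone 18. The medians of the other 19 chromosomes ran from -0.11 on chromosome 15 to 0.06 on chromosome 6 in the knockout tumors, from -0.12 to 0.07 in clone 4 and from -0.08 on chromosome X to 0.05 in clone 18. In windows of 5 Mb along chromosome 16, the median was below 0 in 20 of 20 windows for the knockout tumors, in 18 of 20 for clone 4 and in 19 of 20 for clone 18. In windows of 10 Mb it was below 0 in 10 of 10 windows for each. The 4 most distal windows, from 80 to 100 Mb, stood at -0.33, -0.30, -0.28 and -0.14 in the knockout tumors, and the window nearest the centromere with genes stood at -0.12. The name of distal dosage genes therefore describes where the 38 genes lie, not where the lower values begin, and the dosage itself was not measured.

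**Figure D4:**
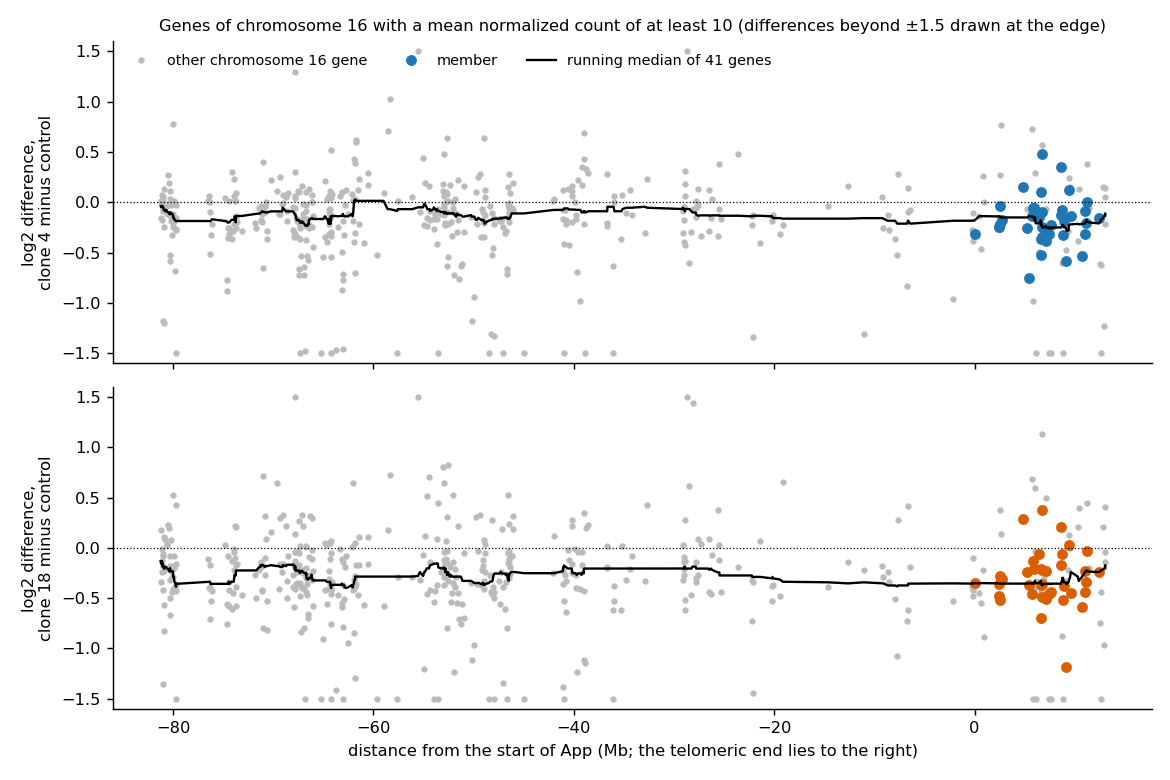
Log2 difference against control (vertical axis) of 497 genes of chromosome 16 by distance from the start of *App* in Mb (horizontal axis), for clone 4 above and clone 18 below, with the 38 genes in color and a running median of 41 genes as a line. The line lies below 0 along nearly the whole chromosome, and lies lower in clone 18 than in clone 4.

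**Figure D5:**
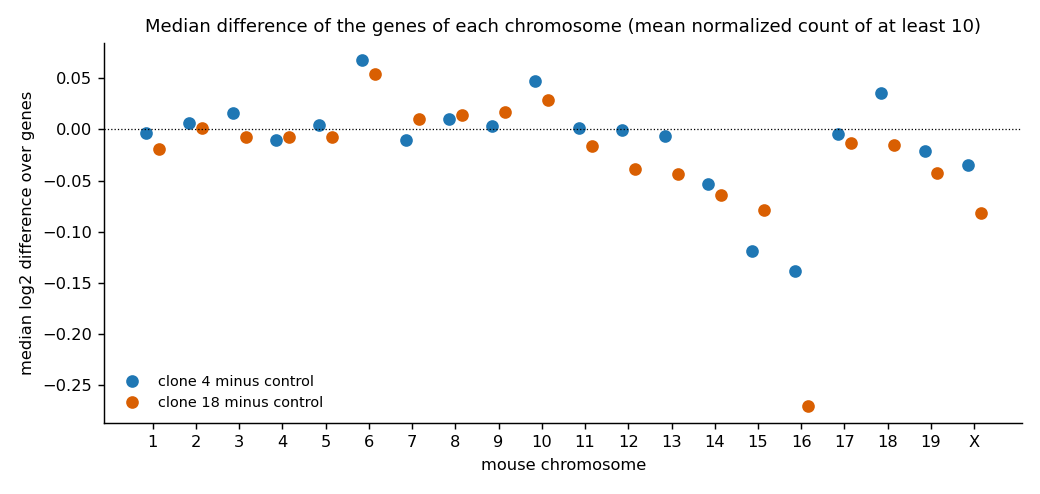
Median log2 difference against control (vertical axis) over the genes of each mouse chromosome (horizontal axis), for clone 4 in blue and clone 18 in orange. Chromosome 16 has the lowest median in both clones, at -0.14 and -0.27, and chromosome 15 is close to it in clone 4 at -0.12.

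Along the 38 genes, the median of every block was below 0 in both clones. The 6 genes from *App* to *Bach1* had a median of -0.32 in the knockout tumors, the 6 from *Tiam1* to *Synj1* -0.19, and the 8 from *Il10rb* to *Itsn1* -0.26. The 4 from *Mrps6* to *Runx1* stood at -0.36, the 8 from *Setd4* to *Dyrk1a* at -0.22, and the 6 from *Ets2* to *Bace2* at -0.24. The block medians ran from -0.31 to -0.10 in clone 4 and from -0.45 to -0.23 in clone 18, and differences between blocks were not tested. Between *Synj1* and *Tmem50b* lie the interferon receptor genes *Ifnar2*, *Ifnar1* and *Ifngr2*, which are also orthologs of human chromosome 21 genes. *Ifngr2*, the second chain of the interferon gamma receptor, measured 3892.4, 3522.1, 3821.5, 3981.2 and 3568.5 in control, 3024.1, 3071.2, 3311.3, 2778.5 and 3522.3 in clone 4 and 3008.4, 2799.1, 2754.1, 2411.7 and 2880.5 in clone 18. Its differences were -0.26 ± 0.07 and -0.44 ± 0.07, and those of *Ifnar1* were -0.21 ± 0.06 and -0.36 ± 0.06. These lay between the quartiles of the 38 genes, -0.31 to -0.08 in clone 4 and -0.46 to -0.21 in clone 18. *Ifnar2* lay below the lower quartile in each clone (-0.50 ± 0.07 and -0.48 ± 0.07). *Dopey2*, in the same stretch, was lower by more (-0.74 ± 0.13). *Eva1c* was -0.98 ± 0.35 in clone 4 (not called) and -3.89 ± 0.35 in clone 18 (called), with -2.91 ± 0.35 between the clones (called). The potassium channel subunit gene *Kcne1*, also called lower, measured 8.5 to 144.4 normalized counts in control and 0 to 6.7 in the knockout tumors. *Adamts1* (0.26 ± 0.09) and *Map3k7cl* (0.77 ± 0.25), which also lie between *App* and *Bace2*, were called higher in clone 4 and were not called in clone 18.

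Because the whole chromosome was lower, the 38 genes were also set against it. Each tumor was centred on the median of its 459 other chromosome 16 genes, a step added after these data were seen. The median difference of the 38 genes was then -0.07 in the knockout tumors, -0.06 in clone 4 and -0.08 in clone 18. Relative to the chromosome, 7 genes were called lower in the knockout tumors (*Tmem50b*, *Cryzl1*, *Mrps6*, *Rcan1*, *Morc3*, *Hlcs* and *Ets2*) and 4 higher (*Tiam1*, *Donson*, *Setd4* and *Ttc3*), beside 5.82% and 30.6% of all genes on that scale, where the median of all genes was 0.19. *Hlcs* was -0.68 ± 0.15 and *Donson* 0.63 ± 0.06 there, and *Ifngr2* was -0.15 ± 0.06, *Ifnar1* -0.08 ± 0.05 and *Ifnar2* -0.28 ± 0.07.

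The clones differed directly from each other for 6 of the 38 genes, all lower in clone 18, beside 2.13% of all genes called lower and 2.49% called higher. These were *Hlcs* (-0.60 ± 0.14), *Dyrk1a* (-0.32 ± 0.05), *Gart* (-0.31 ± 0.08), *Cct8* (-0.30 ± 0.05), *Usp16* (-0.25 ± 0.05) and *Cryzl1* (-0.23 ± 0.06). For 5 of them, and for *Chaf1b*, all clone 18 tumors were below all clone 4 tumors, which makes 6 genes lower and 0 higher without overlap, beside 2.88% and 2.64%. For *Cryzl1*, 4 of 5 were. *Usp16* and *Cct8* are neighbors whose ends overlap on opposite strands, so they may share reads. The median difference between clones over the 38 genes was -0.13, with 31 of 38 below 0, while chromosome 16 as a whole stood at -0.12 and the other chromosomes between -0.05 and 0.03. After centring on the other chromosome 16 genes, 1 gene was called lower in clone 18 (*Hlcs*) and 1 higher (*Tmem50b*), beside 0.942% and 8.35% of all genes. Without tumors 10 and 13, which stood apart on principal components in an earlier analysis, 3 of the 38 genes were called between the clones. The summed skeletal muscle markers had a median of 1091.5 in clone 18 and 77.5 in clone 4. Of these 5 markers, 0 were called between the clones by limma, edgeR or DESeq2, and 1 had an unadjusted p under 0.05 by limma. In clone 18 against control, 1 was called by limma, 4 by edgeR and 5 by DESeq2. The part of muscle RNA in the differences between the clones was not tested.

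The 64 partner genes lie on other chromosomes. Each shares a complex, pathway or gene family with any of the 38 genes or is a target of Bach1. Of the 64, 8 were called lower and 7 higher in the knockout tumors, beside 12.9% and 9.23% of all genes, with a median of -0.02. Clone 4 had 7 lower and 7 higher, beside 10.0% and 6.79%, and clone 18 had 10 lower and 4 higher, beside 14.2% and 10.4%. Of 7 other subunits of the chaperonin that holds Cct8, 0 were called in all knockout tumors by limma, edgeR or DESeq2 (-0.13 to 0.10 across them), and 1 had an unadjusted p under 0.05. In clone 18, *Cct2* was called lower (-0.16 ± 0.05, adjusted p = 0.0365 by limma). All 7 were lower in clone 18 than in clone 4 (median -0.14), with a lowest adjusted p between the clones of 0.0937 for *Cct2* by limma. For 5 other enzymes of purine synthesis, the pathway of *Gart*, 0 were called in all knockout tumors by the 3 tools and 0 had an unadjusted p under 0.05. *Pfas* was called higher in clone 4 (0.27 ± 0.09, adjusted p = 0.0477 by limma) and *Atic* lower in clone 18 (-0.15 ± 0.05, adjusted p = 0.0314). Among 11 genes of amyloid processing, 4 were called lower and 1 higher by limma, beside 12.9% and 9.23% of all genes. By edgeR 3 of the 11 were called, and by DESeq2 5. *Psen2*, a catalytic subunit of gamma-secretase, measured 1231.3, 1301.7, 1238, 1344.6 and 1360.8 in control, 517.8, 702.4, 550.1, 646.3 and 655 in clone 4 and 941.9, 740.7, 679.4, 744.8 and 940.4 in clone 18 (-0.89 ± 0.12, adjusted p = 5.01e-05 by limma), with no overlap. *Adam17*, a shedding protease, was higher (0.33 ± 0.07, adjusted p = 0.00412).

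Among 11 genes of calcineurin and NFAT, the catalytic subunit gene *Ppp3ca* was lower (-0.39 ± 0.08, adjusted p = 0.00139 by limma), and *Ppp3cc* (0.30 ± 0.08, adjusted p = 0.0154) and *Rcan3* (0.21, adjusted p = 0.0265) were higher. Of 6 targets of Bach1, *Gclm*, for glutathione synthesis, was higher (0.59 ± 0.14, adjusted p = 0.00535) and *Nqo1*, a quinone reductase gene, was lower (-0.50 ± 0.11, adjusted p = 0.00287). *Hmox1*, the heme oxygenase gene that Bach1 is best known to repress, was 0.35 and was not called (adjusted p = 0.356). The extracellular superoxide dismutase gene *Sod3* was lower by limma (-1.28 ± 0.43, adjusted p = 0.0416) but was not called by edgeR or DESeq2, and the mitochondrial *Sod2* was 0.04 (adjusted p = 0.722). *Tiam2*, the paralog of *Tiam1*, measured 41.8, 39.6, 59.3, 42.6 and 49.7 in control, 67.5, 163.4, 36.8, 60.3 and 92.5 in clone 4 and 863.3, 530.3, 579.9, 732.7 and 807.2 in clone 18. Clone 18 stood far above all other tumors for *Tiam2* (3.88 ± 0.29 against control, adjusted p = 7.63e-08, and 3.20 ± 0.29 against clone 4, adjusted p = 3.22e-06, both by limma).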

How the data were processed

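Total RNA of 15 tumors was sequenced in bulk. Per the study's methods and labels, the authors used TopHat2 for alignment to mm10, HTSeq for counts per gene and DESeq for size-factor normalization. The deposited values are a signal, normalized counts rounded to 0.1, for 18279 genes. Tool versions, gene annotation and strand setting are not given in the sources used here. Undoing the size factors gave whole reads for 100% of values up to 8000 (tolerance 0.06).

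Here, 29 genes at 0 in all tumors were left out and 18250 were tested on log2(normalized count + 1) with limma 3.58.1 (trend, Benjamini-Hochberg over all genes tested, threshold 0.05), as knockout against control and, in a fit with 3 groups, between each pair. Labels do not state that tumors came from separate animals, so p-values measure only the spread between these tumors. Alternatives were pseudocounts of 0.1 and 5, a mean of at least 10, upper-quartile scaling, quantile normalization, dropping the limma trend, recovered reads tested by edgeR 4.0.16 or DESeq2 1.42.0, each tumor left out, and, added after the data were seen, tumors 10 and 13 left out and centring on chromosome 16. In simulated data with 200 of 16494 genes changed by 1 on the log2 scale between 10 knockout and 5 control libraries, the share found was 75.5% by limma, 76.5% by edgeR and 80% by DESeq2, and 4.43%, 4.38% and 15.79% of their calls were false. The 38 genes changed by less (median -0.28) and 4040 genes were called here, so these shares may not hold for these data. Positions are from GENCODE M21 on GRCm38, promoters from RefSeq GRCm38.p6.

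Values per tumor are given for members with a mean of at least 50 that had, in any comparison, one of the 5 largest rises or 10 largest falls past the threshold among the 38 genes, and for the pairs *Cbr1* and *Cbr3*, *Rcan1* and *Dyrk1a*, *App* and *Bace2*. Partner genes and other orthologs named are up to 4 per direction with the largest change past the threshold and a mean of at least 10. *Rcan3*, *Hmox1*, *Sod2*, *Cct2* and *Atic* were named after their values were seen. The 38 genes and all lists were chosen with earlier results of these data known.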

Additional observations from a re-analysis of the deposited data

Results flagged for a closer look

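A single tumor stood apart from the other 4 of its group in 11 of 117 group-by-gene checks with Dixon's criterion, where about 5.85 are expected by chance. In the control group these were *Sod1* in tumor 4 (15566.3 against 12311.9 to 12980.5 normalized counts), *Donson* in tumor 3 (1540.3 against 1395.7 to 1432.1), *Slc5a3* in tumor 2 (10179.7 against 6358.6 to 6659.3) and *Cbr3* in tumor 1 (443.3 against 337.3 to 363.1). In clone 4 they were *Cct8* in tumor 10 (15267.9 against 14843.6 to 14949.1), *Ets2* in tumor 10 (4284.3 against 2766.6 to 3071.2), *Synj1* in tumor 9 (1416.5 against 1851.4 to 1899.7), *Mrps6* in tumor 8 (1971.5 against 1621.9 to 1718.4) and *Hmgn1* in tumor 7 (15769 against 17210.7 to 17784.8). The level of the 38 genes in tumor 9 was also apart, at -0.31 against -0.19 to -0.15. In clone 18 the only one was *Usp16* in tumor 13 (2165 against 1951.4 to 1992.7).

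Clones 18 and 4 differed from each other, by the direct limma comparison, for 6 of the 38 genes. Clone 18 minus clone 4 was -0.60 for *Hlcs* (-0.58 in clone 4 and -1.18 in clone 18), -0.32 for *Dyrk1a* (-0.13 and -0.45), -0.31 for *Gart* (0.11 and -0.21), -0.30 for *Cct8* (-0.21 and -0.51), -0.25 for *Usp16* (-0.04 and -0.28) and -0.23 for *Cryzl1* (-0.25 and -0.48). Chromosome 16 as a whole differed between the clones by -0.12, and the part of that shift in these differences was not tested beyond the centred values given above.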

How the results depend on the processing

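Over the scaling, pseudocount, filter and test alternatives, the number of the 38 genes called against control stayed between 20 and 22 for all knockout tumors, 12 and 17 for clone 4 and 20 and 23 for clone 18, and was 4 to 7 between the clones. With each tumor left out in turn it was 18 to 22, 10 to 17 and 19 to 24, and 4 to 6 between the clones. Centring on the other chromosome 16 genes moved these counts to 11, 8, 12 and 2, and leaving out tumors 10 and 13 gave 3 between the clones. Partner genes called were 9 to 15 when each tumor was left out, the lowest without control tumor 3. Quantile normalization moved the share of lower calls among all genes called from 58.3% to 46.5%. *App* lost its call without control tumor 2 (-0.29, adjusted p = 0.0501 by limma). *Setd4* passed the threshold under 5 alternatives and without tumor 12 (0.32), and *Usp16* without tumor 8 (-0.18). *Mis18a* passed by DESeq2 and without tumors 2, 6, 8 or 9. DESeq2 made 15.79% false calls in simulated data, where the changes were larger and in fewer genes, so that share may not hold here. With each tumor left out, *Cbr3* ranged from -0.10 to 0.00043 and *Bace2* from -0.37 to 0.0026, the highest without control tumors 1 and 3. Low counts limited the precision of *Hunk*, *Dnajc28* and *Bace2*. No paired analysis was possible because no replicate number in the labels is shared between groups.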
